A study of Mus musculus with 8 samples.

Results

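The core circadian clock loop was examined in mouse liver through the 10 genes Arntl, Clock, Npas2, Per1, Per2, Per3, Cry1, Cry2, Nr1d1 and Nr1d2. Its members are the 23 probe sets whose platform annotation gives exactly 1 gene symbol and that symbol is one of the 10, out of 45037 probe sets without the array controls. All 10 genes had at least 1 such probe set, and Per3 had the most with 6. The livers came from 4 mice labelled MTAP+/- (heterozygous, with 1 intact copy of Mtap) and 4 labelled MTAP+/+ (wild type), all C57BL/6 males aged 92 to 101 days. Mtap encodes methylthioadenosine phosphorylase, an enzyme of methionine salvage. Total RNA went onto 1 Affymetrix mouse array per animal, and the values are log2 signals made by the authors with RMA. The comparison asks how liver transcripts differ when 1 copy of Mtap is lost, and each log2 change is MTAP+/- minus MTAP+/+. The labels used here state no collection time, litter or array batch.

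The clock is a feedback loop that runs in nearly every cell. BMAL1, the product of Arntl, pairs with CLOCK or its relative NPAS2 and binds E-boxes to switch on the Per, Cry and Nr1d genes. PER and CRY proteins then return to the nucleus and hold that pair down. REV-ERB-alpha and REV-ERB-beta, from Nr1d1 and Nr1d2, compete with ROR proteins at their shared DNA element and repress Arntl. In mouse liver the transcripts of Arntl, Npas2 and Cry1 are known to be high at other hours of the day than those of Per1, Per2, Per3, Nr1d1 and Nr1d2.

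Sequences around the starts of 4 members show the elements through which the loop is known to act, and were taken from RefSeq (GRCm38.p6) for the genes on which the values below turn. Motifs were searched on both strands of windows from 250 bases before to 50 bases after each gene start. Of the 10 genes 9 matched the table, with 13 windows. For Arntl the 30 bases at chr7:113207530-113207559 (+) hold the ROR and REV-ERB element TAGGTCA, in capitals, whose first base is base 31 after the start. For Per3 the 250 bases before the start, chr4:151044666-151044915 (-), hold the D-box core TTATGTA at both places in capitals, 205 and 158 bases before the start. For Cry1 (chr10:85185055-85185304, -) and Per1 (chr11:69098699-69098948, +) the capitals mark the E-box CACGTG, 60 and 166 bases before the start. Per1 is shown beside Cry1 because both hold that E-box while their changes below differ in sign.
Arntl: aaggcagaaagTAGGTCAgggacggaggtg
Per3: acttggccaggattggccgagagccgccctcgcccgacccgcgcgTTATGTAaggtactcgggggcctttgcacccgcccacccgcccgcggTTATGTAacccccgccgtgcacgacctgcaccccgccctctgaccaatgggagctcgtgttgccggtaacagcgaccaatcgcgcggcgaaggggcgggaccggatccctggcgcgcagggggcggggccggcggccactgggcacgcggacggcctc
Cry1: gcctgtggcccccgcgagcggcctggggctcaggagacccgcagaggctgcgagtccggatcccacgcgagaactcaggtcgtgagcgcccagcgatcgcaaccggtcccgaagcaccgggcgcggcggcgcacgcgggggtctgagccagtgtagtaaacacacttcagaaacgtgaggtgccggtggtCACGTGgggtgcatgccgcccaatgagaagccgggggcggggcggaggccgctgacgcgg
Per1: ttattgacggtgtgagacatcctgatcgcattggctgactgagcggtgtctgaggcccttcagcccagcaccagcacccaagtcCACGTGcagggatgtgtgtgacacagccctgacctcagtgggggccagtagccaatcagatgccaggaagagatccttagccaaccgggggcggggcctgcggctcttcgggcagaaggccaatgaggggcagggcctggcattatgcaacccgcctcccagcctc

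Over all 32851 windows of that length, 7.15% held CACGTG, 2.63% held TTATGTA and 2.61% held TAGGTCA, and 0.0944% held TTATGTA more than once. Among the 13 member windows the counts were 2, 1 and 1 in that order of motifs. A match is a run of letters and was not tested as a binding site. None of the 3 motifs overlapped another in these windows.

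The labels were checked first on Mtap, on chromosome 4. Its brightest probe set, 1424425_a_at, averaged 6.90 ± 0.12 in MTAP+/- and 7.69 ± 0.10 in MTAP+/+ livers (SD, n = 4 each), with every heterozygous liver lower. The liver label was checked on hepatocyte transcripts: the summed signal of Alb, Apoa1, Ttr, Cps1, Cyp2e1 and Tat lay between 16.4 and 16.5 on the log2 scale in both genotypes. A principal component analysis put wild-type replicate 4 next to heterozygous replicates 1, 3 and 4 on component 1 (28.3% of the variance; scores of 23.43 to 24.91), and the other 4 arrays lay between -35.57 and -3.58. On component 2 heterozygous replicate 2 had the highest score (44.1, with 14.8 the next). The 3' minus 5' signal of the Actb and Gapdh controls, a sign of RNA integrity, averaged 1.005 ± 0.195 in MTAP+/- and 0.960 ± 0.066 in MTAP+/+ arrays (SD, n = 4 each).

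Heterozygous livers had less signal for the activators Arntl and Npas2 and for the repressor Cry1, and more for Per3, than wild-type livers. Arntl differed most, with a level in MTAP+/- livers of 35.2% of that in MTAP+/+ livers (95% interval 23.7 to 52.3%). Per3 stood at 1.97-fold (1.53 to 2.55), with wild-type values near the array medians, where RMA is known to compress differences. No member probe set passed an adjusted p of 0.05 in limma, where 16 of all 45037 probe sets did (0.0355%), so the differences below are given as values. In bulk tissue fewer cells of a type and less RNA per cell cannot be told apart. At an unadjusted p under 0.05 in limma there were 8 of 23 member probe sets, 4 higher and 4 lower, against 8.41% of all probe sets (4.56% higher and 3.85% lower). The genotype groups did not overlap at 6 of 23, 2 higher and 4 lower, against 4.35% of all probe sets (2.12% higher and 2.22% lower). At 1 of the 6, Per3 1441445_at, the gap lies at the level of control probe sets. The median absolute log2 change was 0.27 over the members and 0.10 over all probe sets. Probe sets of 1 gene are not independent, and the 8 fall on 6 genes. The members, and the gene lists read further below, were chosen with earlier results of these data known. A larger share among them than over all probe sets is thus no test.

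**Figure D1:**
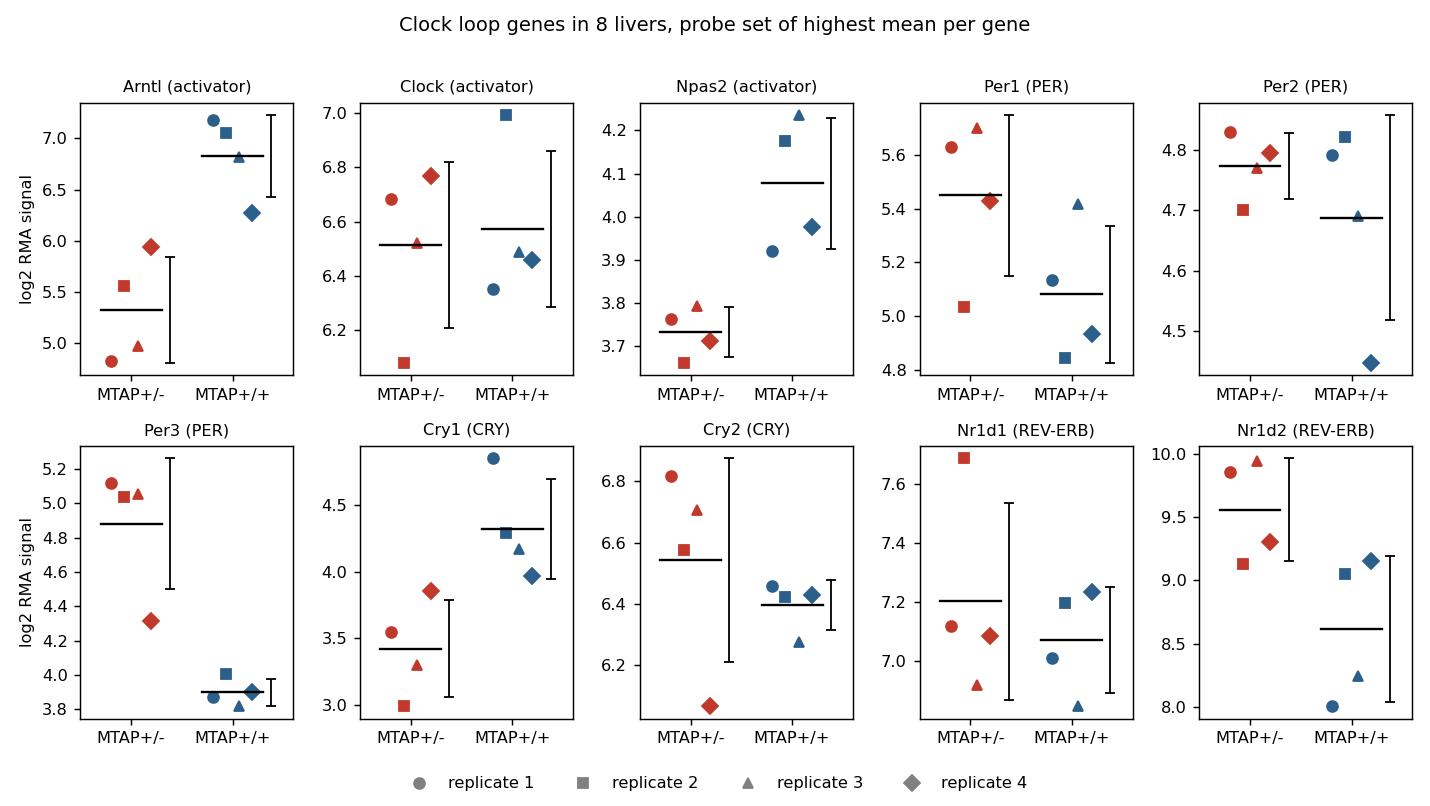
Log2 RMA signal (vertical axes, 1 scale per panel) of the probe set of highest mean of each clock gene, with MTAP+/- livers in red at the left and MTAP+/+ livers in blue at the right of each panel; symbols give the replicate, lines the group mean and bars the SD (n = 4). Arntl, Npas2 and Cry1 are lower and Per3 is higher in all 4 heterozygous livers, while the groups overlap for the other 6 genes.

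Arntl, which encodes the activator BMAL1, had a signal of 4.82, 5.56, 4.98 and 5.93 in MTAP+/- replicates 1 to 4 at probe set 1425099_a_at, against 7.18, 7.05, 6.82 and 6.28 in MTAP+/+ replicates 1 to 4. The groups did not overlap, and the gap of 0.34 between them lay between the replicates numbered 4 of both genotypes. The log2 change was -1.51 ± 0.26 (SE), with limma's adjusted p = 0.127, and the exact two-sided permutation p was 0.0286, the smallest that 4 against 4 allows. Its other probe set, 1457740_at, ran from 3.64 to 3.86 in MTAP+/- and from 3.70 to 3.94 in MTAP+/+ livers, near the array medians of 3.92 to 3.98. There the groups overlapped and the log2 change was -0.06 (95% interval -0.28 to 0.16), so the difference at 1425099_a_at was not repeated. At such a level RMA is known to compress differences, so 1457740_at cannot tell whether Arntl differs.

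Npas2, the relative of CLOCK that can take its place beside BMAL1, was lower at both of its probe sets. Probe set 1421037_at gave 3.06, 3.46, 3.21 and 3.25 in MTAP+/- livers and 4.41, 3.92, 4.24 and 3.55 in MTAP+/+ livers. All heterozygous livers lay below all wild-type livers, though heterozygous replicate 2 and wild-type replicate 4 were only 0.09 apart. Its log2 change came to -0.79 ± 0.18 (SE; limma's adjusted p = 0.227, exact permutation p = 0.0286). At 1421036_at the levels were 3.66 to 3.79 in MTAP+/- and 3.92 to 4.24 in MTAP+/+ livers, again without overlap, for a log2 change of -0.34 ± 0.10 (limma's adjusted p = 0.39). Both probe sets lay near the array medians, where RMA is known to compress differences.

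Clock, the usual partner of BMAL1, had overlapping groups at all 4 of its probe sets. At its probe set of highest mean, 1435775_at, the livers had 6.68, 6.08, 6.52 and 6.77 in MTAP+/- and 6.35, 6.99, 6.49 and 6.46 in MTAP+/+. The ranges were interleaved, with the lowest liver a heterozygous one and the highest a wild-type one. The log2 change was -0.06 with a 95% interval of -0.45 to 0.33. The other 3 Clock probe sets had changes of -0.27, 0.08 and 0.09 with overlapping groups, and the dimmest of them, 1439314_at, lay between 2.34 and 2.80 in all livers. That is within the range of the bacterial TrpnX control probe sets (2.11 to 2.94 on MTAP+/- arrays and 2.12 to 2.95 on MTAP+/+ arrays), so it gives no level for Clock.

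Among the PER genes, whose proteins carry the negative signal of the loop, Per3 differed most. Probe set 1421087_at gave 5.12, 5.04, 5.05 and 4.31 in MTAP+/- livers and 3.87, 4.01, 3.82 and 3.90 in MTAP+/+ livers. All heterozygous livers were higher, 3 of them close together and replicate 4 well below those. The wild-type livers spanned a narrow range near the array medians of 3.92 to 3.98. The log2 change was 0.98 ± 0.17 (SE, with limma's adjusted p = 0.127 and exact permutation p = 0.0286). Without heterozygous replicate 4 the log2 change was 1.17 with limma's adjusted p = 0.00507, the single setting tried in which any member passed the threshold. Per3 lies on chromosome 4, as Mtap does.

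The other 5 Per3 probe sets were dimmer and did not all show the difference. Probe set 1441445_at had 3.43, 3.99, 3.32 and 2.87 in MTAP+/- livers and 2.70, 2.67, 2.81 and 2.78 in MTAP+/+ livers. Its wild-type values and heterozygous replicate 4 lie in the range of the TrpnX controls, so the gap of 0.05 between the groups is a gap within that range. The fitted log2 change of 0.66 ± 0.19 (SE, limma's adjusted p = 0.39) therefore has no measured wild-type level behind it. Probe set 1458176_at had 3.74, 4.49, 3.32 and 3.15 in MTAP+/- livers against 3.10 to 3.27 in MTAP+/+ livers, a change of 0.50 in which heterozygous replicate 2 stood highest, and of 0.23 without that liver. For 1442243_at the change was 0.27, for 1460662_at 0.09 and for 1421086_at -0.08, each with overlapping groups.

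Per2, a period protein that binds CRY, had 4.66, 4.70, 4.79 and 3.94 in MTAP+/- livers and 4.20, 4.23, 3.86 and 3.77 in MTAP+/+ livers at probe set 1417602_at. Heterozygous replicates 1, 2 and 3 were above every wild-type liver and replicate 4 was among them. Here the log2 change amounted to 0.51 ± 0.19 (SE), with limma's unadjusted p = 0.0226 and adjusted p = 0.506, and the exact permutation p was 0.0857. At the brighter 1417603_at the change was 0.09 (95% interval -0.14 to 0.32) and at 1457350_at 0.07. Per1, which is also induced by glucocorticoid and cyclic AMP signals, had 5.63, 5.03, 5.70 and 5.43 in MTAP+/- livers and 5.13, 4.84, 5.42 and 4.93 in MTAP+/+ livers. The groups overlapped because heterozygous replicate 2 lay below wild-type replicates 1 and 3. The log2 change of Per1 was 0.37 ± 0.17 (SE; limma's unadjusted p = 0.0522, exact permutation p = 0.114).

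The CRY genes, whose proteins block the BMAL1 pair directly, gave log2 changes of opposite sign. Cry1 had 3.55, 2.99, 3.30 and 3.85 in MTAP+/- livers and 4.85, 4.28, 4.17 and 3.97 in MTAP+/+ livers. Every heterozygous liver was lower, and as for Arntl the replicates numbered 4 stood nearest to each other, 0.12 apart. Cry1 thus had a log2 change of -0.89 ± 0.21 (SE, with limma's adjusted p = 0.264 and exact permutation p = 0.0286), a level of 53.9% of wild type (95% interval 38.9 to 74.7%). All heterozygous values of Cry1 lay below the array medians of 3.92 to 3.98, where RMA is known to compress differences. The lowest, 2.99 in replicate 2, was just above the TrpnX controls (up to 2.94 on MTAP+/- arrays). Cry2 had 6.82, 6.58, 6.71 and 6.06 in MTAP+/- livers and 6.46, 6.42, 6.28 and 6.43 in MTAP+/+ livers. There 3 heterozygous livers lay above all wild-type livers and replicate 4 below them all, for a log2 change of 0.15 (95% interval -0.19 to 0.48). Without heterozygous replicate 4 it was 0.31 (limma's unadjusted p = 0.0171, adjusted p = 0.586).

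The REV-ERB genes, repressors of Arntl, gave 1 large and 1 small value. Nr1d2, which encodes REV-ERB-beta, had 9.86, 9.13, 9.95 and 9.30 in MTAP+/- livers and 8.004, 9.05, 8.25 and 9.16 in MTAP+/+ livers at 1416958_at. The groups overlapped by 0.02, since wild-type replicate 4 was just above heterozygous replicate 2, and wild-type replicates 1 and 3 were the lowest of the 8. The log2 change was 0.95 ± 0.28 (SE; limma's adjusted p = 0.39, exact permutation p = 0.0571). The dim probe set 1416959_at had a log2 change of 0.22 (95% interval -0.04 to 0.49). Nr1d1, which encodes REV-ERB-alpha, had 7.12, 7.69, 6.92 and 7.08 in MTAP+/- livers and 7.01, 7.20, 6.85 and 7.24 in MTAP+/+ livers, and only heterozygous replicate 2 stood outside the wild-type range. Its log2 change was 0.13 (95% interval -0.23 to 0.49). In RefSeq Nr1d1 overlaps Thra at their ends by 1075 bases, and the 3 Thra probe sets had changes of -0.06, 0.01 and -0.14.

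**Figure D2:**
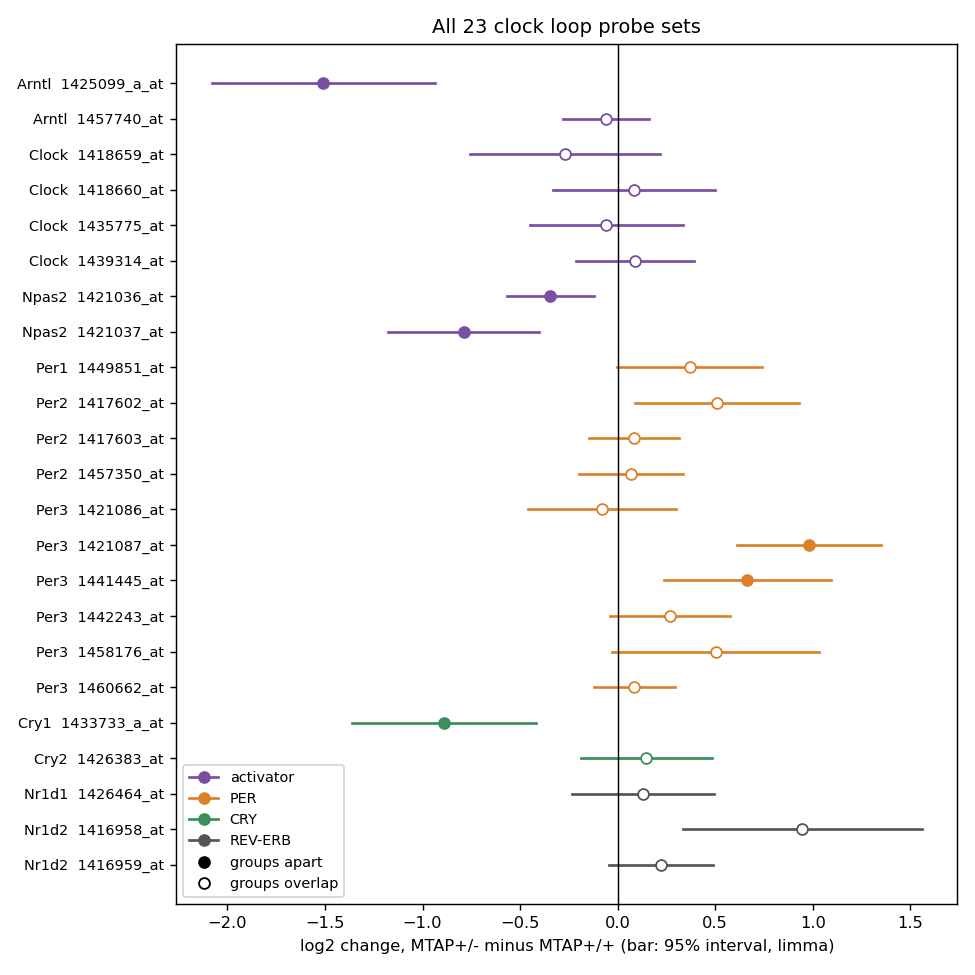
Log2 change, MTAP+/- minus MTAP+/+, of all 23 clock probe sets (points) with limma's 95% interval (bars), coloured by role; filled points mark probe sets whose genotype groups do not overlap. Arntl 1425099_a_at at -1.51 and Per3 1421087_at at 0.98 lie farthest out in each direction, and probe sets of the same gene often differ.

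By role, 6 of 8 activator probe sets were lower, 9 of 10 PER probe sets were higher, 1 of 2 CRY probe sets was higher and 3 of 3 REV-ERB probe sets were higher in MTAP+/- livers. Of all 45037 probe sets 21282 were higher. The medians of the log2 changes were -0.17 for the activators, 0.32 for PER, -0.37 for CRY and 0.22 for REV-ERB, and -0.01 over all probe sets. Of the 10 PER probe sets 6 are of Per3, and of the 8 activator probe sets 4 are of Clock, so they are not independent. Among the PER genes, Per3 alone had probe sets without overlap. The counts and medians take in Clock 1439314_at and Per3 1441445_at, with all or some values at the level of control probe sets. Weak signals bear on this picture, because 15 of the 23 probe sets had a mean under 5 over the 8 arrays and 5 of the 6 without overlap were among those 15.

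The livers were then placed along each arm by the mean of centred log2 signals, where each gene is its probe set of highest mean minus that gene's mean over the 8 livers. This is a description of the animals without a test. On the activator arm (Arntl, Clock and Npas2) MTAP+/- replicates 1 to 4 stood at -0.42, -0.41, -0.41 and -0.04, and MTAP+/+ replicates 1 to 4 at 0.31, 0.57, 0.34 and 0.06. Thus the means of 3 heterozygous livers were nearly equal, while heterozygous replicate 4 and wild-type replicate 4 met near the middle. Single genes in those 3 livers were not equal. In heterozygous replicates 1 to 3 Arntl stood at -1.25, -0.52 and -1.10, and Clock at 0.14, -0.46 and -0.02. Genes were not scaled, so Arntl, with the widest range of the 3 genes, weighed most in this arm. On the PER arm (Per1, Per2 and Per3) the values were 0.40, 0.13, 0.38 and 0.05 in MTAP+/- livers and -0.20, -0.24, -0.15 and -0.37 in MTAP+/+ livers. All heterozygous livers were higher there, again with replicate 4 lowest among them. With the mean of all probe sets of each gene, heterozygous replicate 4 (-0.025) and wild-type replicate 3 (-0.039) nearly met on the PER arm.

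The REV-ERB arm (Nr1d1 and Nr1d2) split the wild-type livers. Its values were 0.38, 0.30, 0.32 and 0.08 in MTAP+/- livers and -0.61, 0.01, -0.57 and 0.08 in MTAP+/+ livers. Wild-type replicates 1 and 3 were far below the rest, and wild-type replicate 4 equalled heterozygous replicate 4 to the second decimal. With PER and CRY joined as a single repressor arm the order no longer followed genotype, at 0.24, -0.08, 0.16 and -0.05 in MTAP+/- livers against 0.07, -0.07, -0.07 and -0.21 in MTAP+/+ livers. In that joined arm Cry1 ran against the PER genes. The order of the livers depended on the probe sets taken. With the mean of all probe sets of each gene, the genotypes did not overlap on the REV-ERB arm. The nearest livers there were heterozygous replicate 4 (0.032) and wild-type replicate 2 (0.017).

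**Figure D3:**
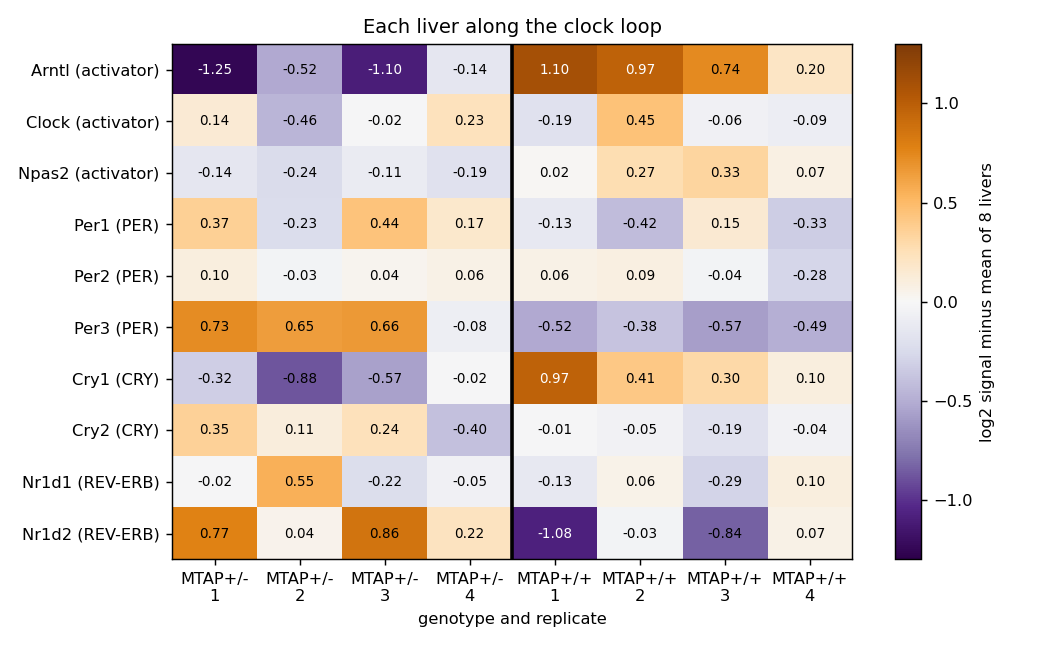
Centred log2 signal (colour and printed number; probe set of highest mean per gene minus its mean over the 8 livers) for the 10 clock genes in rows and the 8 livers in columns, with MTAP+/- at the left of the black line and MTAP+/+ at its right. Arntl, Npas2 and Cry1 are negative in all MTAP+/- and positive in all MTAP+/+ livers. Per3 is positive in 3 of 4 MTAP+/- livers (-0.08 in replicate 4) and negative in all MTAP+/+ livers.

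The livers numbered 4 stood closest to the other genotype at several member probe sets. Over the 8 probe sets with an unadjusted p under 0.05, heterozygous replicate 4 was the heterozygous liver nearest to the wild-type mean at 5. These fall on Arntl, Per2, Per3 and Cry1. Wild-type replicate 4 was the wild-type liver nearest to the heterozygous mean at 4 of the 8. Such counts were not taken over all probe sets. Arntl and Cry1 ranked the wild-type livers in the same order and heterozygous replicate 4 highest of its group, while the other 3 heterozygous livers stood in another order. Nr1d2 ranked heterozygous replicate 3 and then 1 highest and wild-type replicate 1 lowest. At Clock, Per1, Per2, Cry2 and Nr1d1 the ranks of both genotypes were mixed.

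Other parts of the clock were read from 22 further loop and clock-modifying genes, each by its probe set of highest mean, of which 19 were measured. None passed limma's adjusted p of 0.05 (0.0385% of all genes did), and 3 of 19 had an unadjusted p under 0.05, all higher, where 9.36% of all genes did (4.47% higher). Usp2, a ubiquitin protease with a daily rhythm in liver, had a log2 change of 0.70 ± 0.26 (SE), with values of 6.10 to 7.32 in MTAP+/- livers and 5.71 to 6.16 in MTAP+/+ livers. Its heterozygous replicates 1 and 3 were highest and the other 2 overlapped the wild-type livers. Ciart, a repressor of the BMAL1 pair, had 4.74 to 5.08 in MTAP+/- and 3.98 to 4.72 in MTAP+/+ livers, a change of 0.41 ± 0.16. Rora, an activator at the element that REV-ERB proteins also bind, had 8.09 to 8.27 in MTAP+/- and 7.37 to 8.04 in MTAP+/+ livers, a change of 0.35 ± 0.14. The groups did not overlap for Ciart and Rora, and such genes made up 2 of 19 here, both higher, and 4.64% of all genes (1.95% higher).

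Next by p were Nampt, the NAD salvage enzyme (0.34), Bhlhe40, an E-box repressor (0.52), and the deacetylase gene Sirt1 (0.44), with unadjusted p between 0.0648 and 0.107 in limma and overlapping groups. The median change of the 19 was 0.13, against -0.02 over all genes. Their count at an unadjusted p under 0.05 depended on single livers. It was 1 of 19 when heterozygous replicate 1, heterozygous replicate 3 or wild-type replicate 1 was left out, where 6.53%, 7.52% and 6.06% of all probe sets had such a p. It was 6 of 19 when wild-type replicate 4 was left out, where 10% of all probe sets did. These shares are over probe sets (8.41% with all livers), and shares over genes were not taken with a liver left out.

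Clock output was read from 5 listed genes, chosen with earlier results of these data known. The PAR bZIP proteins of Dbp, Tef and Hlf are known as activators at D-boxes and NFIL3 as a repressor there, and whether they bind the Per3 matches printed above was not tested. None of the 5 passed limma's adjusted threshold, 4 of 5 had an unadjusted p under 0.05 (3 higher and 1 lower; 9.36% of all genes did), and the groups did not overlap at 2 of 5 (4.64% of all genes). Noct, which encodes Nocturnin, had the smallest p, with 5.75, 6.08, 6.18 and 6.09 in MTAP+/- livers and 4.69, 4.28, 5.41 and 4.70 in MTAP+/+ livers, a log2 change of 1.25 ± 0.21 (SE; limma's adjusted p = 0.127). Every heterozygous liver was higher for Noct, replicate 4 included. Nfil3 had 6.08, 6.12, 6.21 and 6.85 in MTAP+/- livers and 7.83, 7.53, 7.42 and 6.89 in MTAP+/+ livers, a change of -1.10 ± 0.22 (limma's adjusted p = 0.178). Its groups did not overlap, with the replicates numbered 4 next to each other.

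For Dbp the livers had 10.40, 9.72, 10.14 and 8.05 in MTAP+/- and 6.06, 8.08, 6.65 and 8.13 in MTAP+/+, a log2 change of 2.35 ± 0.56 (SE; limma's adjusted p = 0.269). Tef had 8.40, 8.11, 8.41 and 7.57 in MTAP+/- livers and 7.25, 7.62, 7.14 and 7.64 in MTAP+/+ livers, a change of 0.71 ± 0.19 (limma's adjusted p = 0.362). In both, heterozygous replicate 4 lay within the wild-type range and the other 3 heterozygous livers above it. Hlf had 6.84 to 7.32 in MTAP+/- livers and 6.48 to 7.58 in MTAP+/+ livers, with overlapping groups and a change of -0.01 (95% interval -0.47 to 0.45).

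Systemic cues can set clock genes as well, and 4 of 5 listed genes were measured. The glucocorticoid-induced gene Tsc22d3 had 6.41, 7.003, 7.17 and 7.25 in MTAP+/- livers and 7.54, 7.14, 8.41 and 7.69 in MTAP+/+ livers, a log2 change of -0.74 ± 0.26 (SE) with limma's adjusted p = 0.472. The other glucocorticoid-induced genes Fkbp5 and Sgk1 were at -0.01 and -0.08, and Cirbp, which follows body temperature, was at 0.33. No listed cue gene passed the adjusted threshold.

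Genes other than the members were also ranked by how far they followed Arntl from liver to liver within a genotype. Likeness was Pearson's r over the 8 livers after subtraction of each genotype's mean, across 7009 other genes with a mean signal of at least 6, and it is a description, because all genes of a liver share 1 array and the genes were picked as extremes. Most alike were Cdh1, Agpat5, Hdhd2, Arsg and AY036118, with r between 0.95 and 0.97, and most opposite were Stk4, Csrnp1, Tcf7l2, Bhlhe40 and Rffl, with r between -0.96 and -0.93. Bhlhe40 was the one of these 10 that is also on the list of clock-modifying genes. On the same measure the other 9 members had r with Arntl of 0.50 for Cry1, 0.48 for Per2, 0.13 for Nr1d1, 0.06 for Clock, -0.14 for Npas2, -0.32 for Per1, -0.62 for Per3, -0.69 for Nr1d2 and -0.70 for Cry2. Members of 1 family thus had r of opposite sign (Cry1 and Cry2, Per2 and Per3, Nr1d1 and Nr1d2). A larger absolute r was found for 7.36% of the 7009 genes in the case of Cry2 and for 91.7% in that of Clock, the extremes among these 9. For the other members of those pairs it was 7.63% (Nr1d2), 12.9% (Per3), 26.7% (Cry1), 29.7% (Per2) and 80.8% (Nr1d1), and the signs were not tested. Npas2, Per1, Per2, Per3 and Cry1 themselves had means under 6, the filter for the 7009 genes.

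Markers of other liver cells were read as summed log2 signals, and none of these genes passed limma's adjusted threshold. Of all 18193 genes 8247 were higher in MTAP+/- livers, and all 6 hepatocyte markers were too, with a median change of 0.02. Of 6 Kupffer cell and macrophage markers 4 were higher, with sums of 11.1 to 11.8 in MTAP+/- livers and 10.9 to 11.2 in MTAP+/+ livers. Among them Mpeg1 (0.65) and Adgre1 (0.78) had groups without overlap, while Clec4f was at -0.27 and Csf1r at -0.02. The sums of the genotypes overlapped, and the highest belonged to heterozygous replicate 2. In that liver Marco had 9.97, against 4.73 to 6.44 in the other heterozygous livers. All 5 measured lymphocyte markers had a log2 change above 0, with sums of 7.51 to 8.50 in MTAP+/- livers and 7.23 to 7.46 in MTAP+/+ livers. Ptprc, a marker of leukocytes at large, carried those sums with 6.65 to 8.15 in MTAP+/- livers and 6.35 to 6.70 in MTAP+/+ livers, while Cd3e, Cd3g, Cd79a and Ms4a1 had changes of 0.01 to 0.22 with overlapping groups.

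Of 6 stellate cell and fibroblast markers 5 had a log2 change above 0, with sums of 9.75 to 10.2 in MTAP+/- and 9.34 to 9.68 in MTAP+/+ livers. Rgs5, at 0.65, was the one whose groups did not overlap, Pdgfrb was at 0.005 and Col1a1 at -0.33. Endothelial sums overlapped, at 10.2 to 10.6 in MTAP+/- and 10.3 to 10.5 in MTAP+/+ livers, as did those of 4 measured cholangiocyte markers, at 6.48 to 6.73 in MTAP+/- and 6.62 to 6.88 in MTAP+/+ livers. The part of these cells in the clock values was not tested.

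The 8 member probe sets with an unadjusted p under 0.05 kept their direction under each of the 17 alternative settings that kept them. This was partly fixed in advance. Where the groups did not overlap, leaving out a liver could not turn the sign. Settings that changed only eBayes, the replicate block or the probe sets tested gave the same log2 change as the main fit. Across these the log2 change of Arntl 1425099_a_at stayed between -1.71 and -1.34, of Npas2 1421037_at between -0.95 and -0.66, of Cry1 between -1.03 and -0.72, of Per3 1421087_at between 0.90 and 1.17 and of Nr1d2 1416958_at between 0.74 and 1.13. Each of these 5 had an unadjusted p under 0.05 in every setting that kept its probe set. Per2 1417602_at did so in 10 of 15, and was at 0.42 to 0.70.

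**Figure D4:**
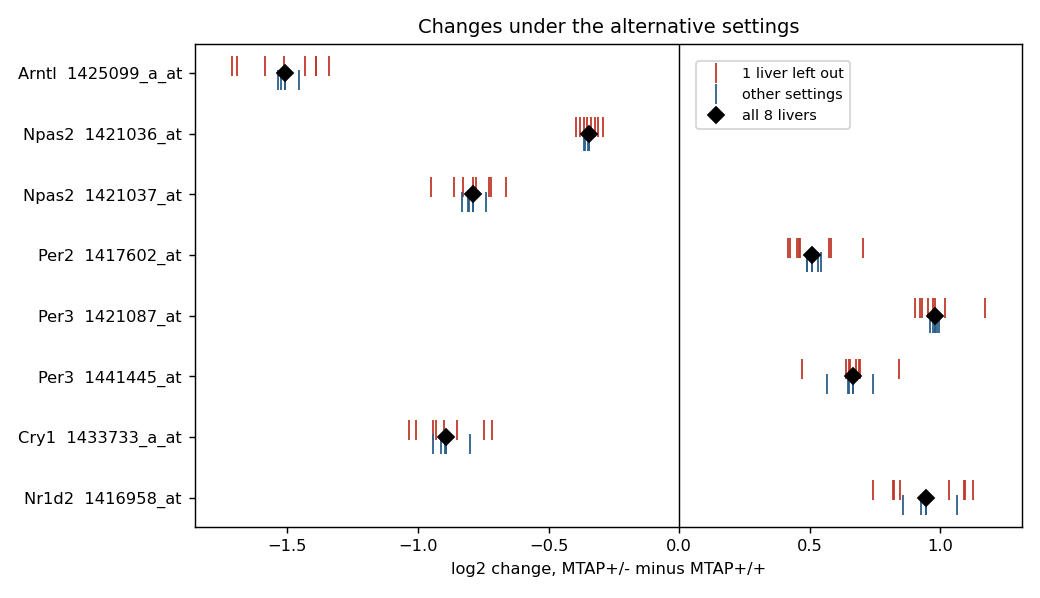
Log2 change, MTAP+/- minus MTAP+/+ (horizontal axis), of the 8 clock probe sets with an unadjusted p under 0.05 for all 8 livers (black diamonds), with 1 liver left out (red ticks) and under the other settings (blue ticks). No tick crosses 0, and the widest shifts come from leaving out a liver, as for Per3 1441445_at between 0.47 and 0.84. Where groups did not overlap, leaving out a liver could not move a tick across 0.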

How the data were processed

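Liver RNA of 8 mice was hybridised to 1 array each, isolated with TRIzol and biotin-labelled per the labels' protocols. For each probe set the authors deposited a log2 signal made with RMA, per the submitters' processing notes. No version or setting of RMA is stated there, and the log2 scale was read from the values (1.64 to 14.7). RMA corrects background, equalises distributions between arrays and is known to compress differences of weak signals. The number of arrays limits the precision, and no filter on detection was applied.

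Out of 45101 probe sets 64 controls were set aside. The platform annotation gave 1 symbol for 34945, several for 932 and none for 9160. Genotypes were compared with limma 3.58.1 (lmFit, eBayes, two-sided) in R 4.3.3 over all 45037 probe sets, with Benjamini-Hochberg adjustment over all of them and a threshold of 0.05. Exact permutation tests over 70 assignments used SciPy 1.17.1. Nothing states that mice of 1 genotype came from separate litters, so p-values measure the spread between these samples. On simulated data for this comparison (45037 probe sets, 5 runs) 19.6% of changes of 0.5, 76.0% of changes of 1 and 92.8% of changes of 1.5 log2 units were recovered, with 4.77% of calls false. Noise was drawn independently for each probe set, and the changed ones were picked from the whole array. These rates are thus not rates for the clock probe sets.

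The members and lists were chosen with earlier results of these data known. Named were all member probe sets, Mtap, up to 6 genes of smallest p per further list and the 5 genes most and least like Arntl. Thra was named after its position was looked up.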

Additional observations from a re-analysis of the deposited data

Results flagged for a closer look

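Each member probe set was screened within each genotype for a liver far from its 3 fellows. Per2 1417602_at in heterozygous replicate 4 was at 3.94, while the nearest other heterozygous liver had 4.66 and the farthest 4.79. Per3 1421087_at in heterozygous replicate 4 was at 4.31, while the others had 5.04 to 5.12. The screen covered 46 groups, and chance alone flags about 1 in 20, or 2.3 of 46. Both values belong to the same liver, whose array weight (1.18) was within the range of the other arrays (0.569 to 1.48).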

How the results depend on the processing

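The 17 alternatives left out each liver in turn, used the replicate number as a block, or left out dim probe sets. Another left out probe sets with names ending in _s_at, _x_at or _a_at, and with them Arntl 1425099_a_at and Cry1 1433733_a_at. The rest changed eBayes, array weights or normalization, took 1 probe set a gene, or added the 3' minus 5' covariate. No member with an unadjusted p under 0.05 changed direction, though where groups did not overlap no left-out liver could turn the sign. Of 361 probe set values 344 kept their side of an unadjusted 0.05, 5 lost it and 12 gained it. The sign turned in 9 of these values, at 5 probe sets (Clock 1418660_at and 1435775_at, Per2 1457350_at, Per3 1421086_at and Nr1d1 1426464_at) whose log2 changes over all livers are at most 0.13 in size. With 1 liver left out, clock probe sets past the adjusted threshold numbered 0 to 1, those past an unadjusted p of 0.05 numbered 7 to 10 (6.06 to 10.8% of all probe sets), those without overlap 6 to 9 (6.53 to 10.0% of all probe sets, against 4.35% with all livers), and other clock genes past an unadjusted p of 0.05 numbered 1 to 6. With dim probe sets left out, 8 member probe sets remained for testing, 2 had an unadjusted p under 0.05 and 1 was without overlap, against 11.1% and 5.78% of all probe sets kept. With 1 probe set a gene, 5 of 10 had an unadjusted p under 0.05, against 9.14% of all genes, with fewer probe sets tested. Whether the replicate numbers pair the samples cannot be told from so few livers. Deviations of same-numbered livers correlated at -0.07, 0.22, 0.005 and 0.23, and 2 of 4 heterozygous livers matched their own number best. With the number as a replicate block 10 member probe sets had an unadjusted p under 0.05 (9.8% of all probe sets, against 8.41% without the block), and 0 passed the adjusted one. Signals near the array medians limit what Npas2, Cry1 and most Per3 probe sets can show.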
